A study of Arabidopsis thaliana with 4 samples.

Results

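TA plates 30 to 57 are a stretch of 28 consecutive plates of the tiling array's TA probe series, with members picked by the plate number in the probe name. They list 2600 of the array's 21800 features, and 2597 of these carry a value, out of 21740 probes with a value in all. The array was hybridised with chromatin immunoprecipitated by an antibody against H3K27me3, trimethylated lysine 27 of histone H3, against its own input DNA. The material was whole, untreated wild-type Columbia (Col-0) seedlings of Arabidopsis thaliana, 10 days old in the sample labels, grown in liquid medium. There is 1 group, immunoprecipitate against input, with 2 immunoprecipitations, called replicates I and II below. Both were put on 2 arrays of opposite dye orientation. The deposited values of such a pair are the same for each probe (largest difference 0), which leaves 1 value per replicate and n = 2. Separate cultures are not named for the 2 immunoprecipitations, so p-values measure only the spread between these samples, which may be technical. A whole seedling mixes many cell types.

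H3K27me3 is placed by Polycomb repressive complex 2 and is read by Polycomb-type proteins that keep genes silent. In Arabidopsis it mostly covers single genes or short groups of genes that are switched off in a tissue, so that along a chromosome short marked blocks alternate with unmarked DNA. Transposon-rich heterochromatin around the centromeres is known for another pair of marks, DNA methylation and methylated lysine 9 of histone H3, and for little H3K27me3. The sources used here do not state where on a chromosome these plates lie, and no probe is paired here with a gene, a position or a sequence. A placement at a pericentromere was not tested.

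Values are given as units above the median of all 21740 probes in the same replicate; the unit is that of the deposited score, which behaves as a log ratio of unstated base. The direction is not stated either and is likely immunoprecipitate over input, judged only from a longer tail on the high side. Over all probes the 90th percentile was 2.19 (replicate I) and 1.51 units (replicate II), and the 10th -0.55 and -0.50. With the sign turned, high and low change places. A probe is called upper if both replicates put it 1 unit or more above the median, and low if both put it 0.5 units or more below. Consecutive wells of the name order are called neighbours, and an unbroken run of upper probes is called an island. The sources used here do not say whether name order is genome order.

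TA plates 30 to 57 were poor in high H3K27me3 values. Upper probes numbered 149 of 2597 (5.74%), against 16.2% of all probes on the array and 19.8% of the 6732 probes on the other TA plates. Low probes numbered 434 (16.7%), against 5.20% of all probes and 4.19% on the other TA plates. Both counts rest on the 2 replicates passing together: replicate I alone gave 279 upper and 678 low probes, and replicate II alone gave 158 and 770. The low count also rests on the centring, with 19 low probes after centring on the mode and 2101 with the values as deposited. The median was -0.27 (replicate I) and -0.31 units (replicate II), against 0.17 and 0.10 units on the other TA plates. The difference of the medians was -0.44 and -0.41 units. It ran the same way in both, but an exact permutation test over 2 replicates cannot give a p below 0.5, so no p is given for it. The other TA plates include TA plates 17 to 29, which were nearly as poor in high values. Their 1166 probes held 7.63% upper and 13.5% low probes, with medians of -0.28 (replicate I) and -0.24 units (replicate II).

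limma's moderated test, fitted to all 21740 probes, called 329 of the 2597 probes above the array median (12.7%, background 27.1%) and 390 below it (15.0%, background 4.81%) at a Benjamini-Hochberg adjusted p under 0.05. Calls above thus made up 45.8% of the calls on these plates. That split depended on the scaling. Calls above made up 97.3% after centring on the mode of the array, 29.8% after equalising the spread of the replicates, 29.3% after quantile normalization and 3.70% with the values as deposited. Neighbouring probes are alike, so calls are not independent events.

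**Figure D1:**
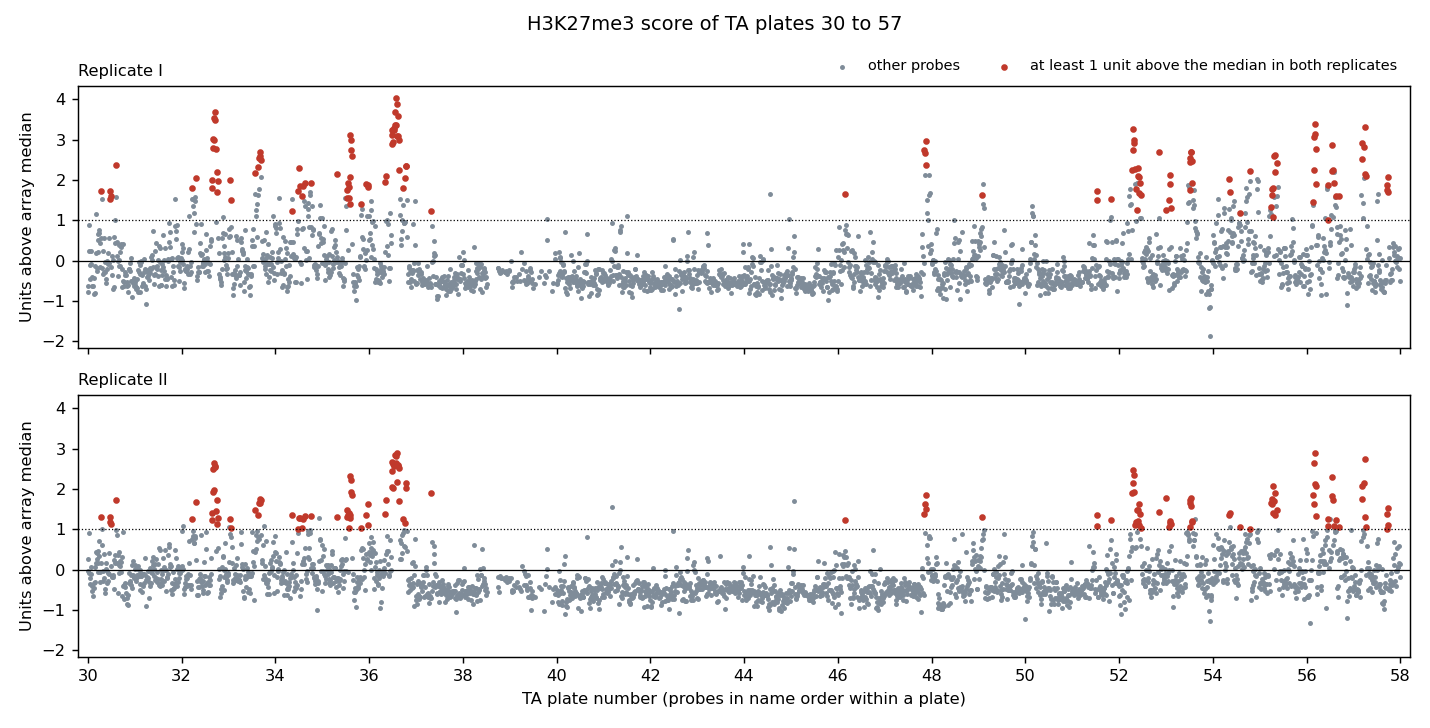
Units above the array median of each probe with a value on TA plates 30 to 57, in name order along the x axis, for replicate I (upper panel) and replicate II (lower panel). Red points are the 149 upper probes, grey points the others; the solid line is the array median and the dotted line the 1-unit rule. High values end near the close of plate 36 and become frequent again from plate 52.

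The plates fell into 3 consecutive sections, whose limits were set after the values were seen. Plates 30 to 36 held 74 upper probes of 669 (11.1%), and their medians were 0.02 (replicate I) and -0.04 units (replicate II). Plates 37 to 51 held 10 upper probes of 1352 (0.740%), with medians of -0.44 and -0.48 units. Plates 52 to 57 held 65 upper probes of 576 (11.3%), with medians of 0.06 and -0.02 units. Both outer sections thus lay at the array median, while their upper share stayed under the 16.2% of the whole array. The limits were placed where the values change, so the contrast between sections is a description without a test.

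Plate by plate, the medians of plates 30 to 35 ran from -0.22 to 0.31 units in replicate I and from -0.13 to 0.02 in II. The lowest by the mean of both was plate 31, at -0.22 and -0.11 units, which held no upper probe. Plate 34 had the widest disagreement of all 28 plates, with medians of 0.31 units (replicate I) and -0.03 units (replicate II), an SD of 0.24 (n = 2). Plate 36 had the highest median of these plates in both replicates, 0.52 and 0.32 units, and the largest share of upper probes, 24.0% (23 of 96). The next plate was among the 5 lowest of the array by the mean of its 2 medians.

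The step from plate 36 to plate 37 was the largest between consecutive plates of this stretch. Plate 37 had medians of -0.51 and -0.53 units, which is 1.04 and 0.84 units under plate 36. Upper probes numbered 1 on plate 37, against 23 on plate 36. With the median centring, low probes numbered 36 on plate 37 (37.5%), against 2 on plate 36 (2.08%) and 5.20% of all probes. The change came within a few wells and before the plate boundary, as the single probes below show.

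Plates 37 to 45 formed a flat floor. Their medians ran from -0.53 to -0.37 units in replicate I and from -0.62 to -0.44 in replicate II. Plate 44 had the lowest mean of the 2 medians, at -0.48 and -0.62 units (mean -0.55, SD 0.10, n = 2). Plates 42, 45, 40 and 37 followed with means of -0.52 units, within 1 SD of plate 44. Plate 45 was the lowest in replicate I alone. The order among these plates is therefore not resolved by 2 replicates. Plates 38 and 39, of which 62 and 42 probes were analysed, had slightly higher medians, -0.37 and -0.42 units in replicate I and -0.45 and -0.44 in replicate II.

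The floor held in every row of 12 wells. Over plates 37 to 45, all 65 rows with at least 6 probes had a median under 0 in both replicates, between -0.66 and -0.16 units in replicate I and between -0.71 and -0.16 in replicate II. In plates 30 to 36 this was so for 23 of 56 rows, and in plates 52 to 57 for 20 of 48. These row counts rest on the median centring. The mode of all probes lay at -0.31 (replicate I) and -0.19 units (replicate II), under the highest row medians of plates 37 to 45. Of the 776 single probes on plates 37 to 45, 90.6% lay below the median in both replicates, against 41.8% of all probes, and 33.1% were low probes, against 5.20%, both with the median centring. limma called 226 of them below the median (29.1%, background 4.81%) and 11 above (1.42%, background 27.1%). The calls below rest on the median centring too, since mode centring left 11 such calls over all 2597 probes of the stretch.

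Plates 46 to 51 were a second, less even part of the low section. Their medians were -0.45 to -0.27 units in replicate I and -0.50 to -0.29 in replicate II, and 20.7% of their 576 probes were low with the same centring. By the mean of both, plate 48 was the shallowest of them, at -0.28 and -0.29 units. Plate 50 was again as deep as the floor, at -0.45 and -0.50 units, with 36 low probes (37.5%, background 5.20%). With the median centring, 41 of the 48 rows had a median under 0 in both replicates and 5 had a median above 0 in both. Those 5 rows were row B of plate 46, row H of plate 47, row H of plate 48, row A of plate 49 and row B of plate 50. The highest of these was row H of plate 47, at 1.34 and 0.45 units. The low section was thus interrupted by such rows on 5 of its last 6 plates, though row H of plate 48 had only 0.13 and 0.15 units. After row B of plate 50, every row up to the end of plate 51 had a median under 0 in both replicates.

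The medians moved up again at plate 52, to 0.05 and -0.11 units, against -0.37 and -0.41 on plate 51. The last plates did not climb evenly. Plate 54 had medians of 0.45 and 0.21 units and no low probe, plate 56 had 0.27 and 0.23, and plates 53, 55 and 57 between and after them lay below 0 in both replicates. Plate 57 closed the stretch at -0.16 and -0.19 units.

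**Figure D2:**
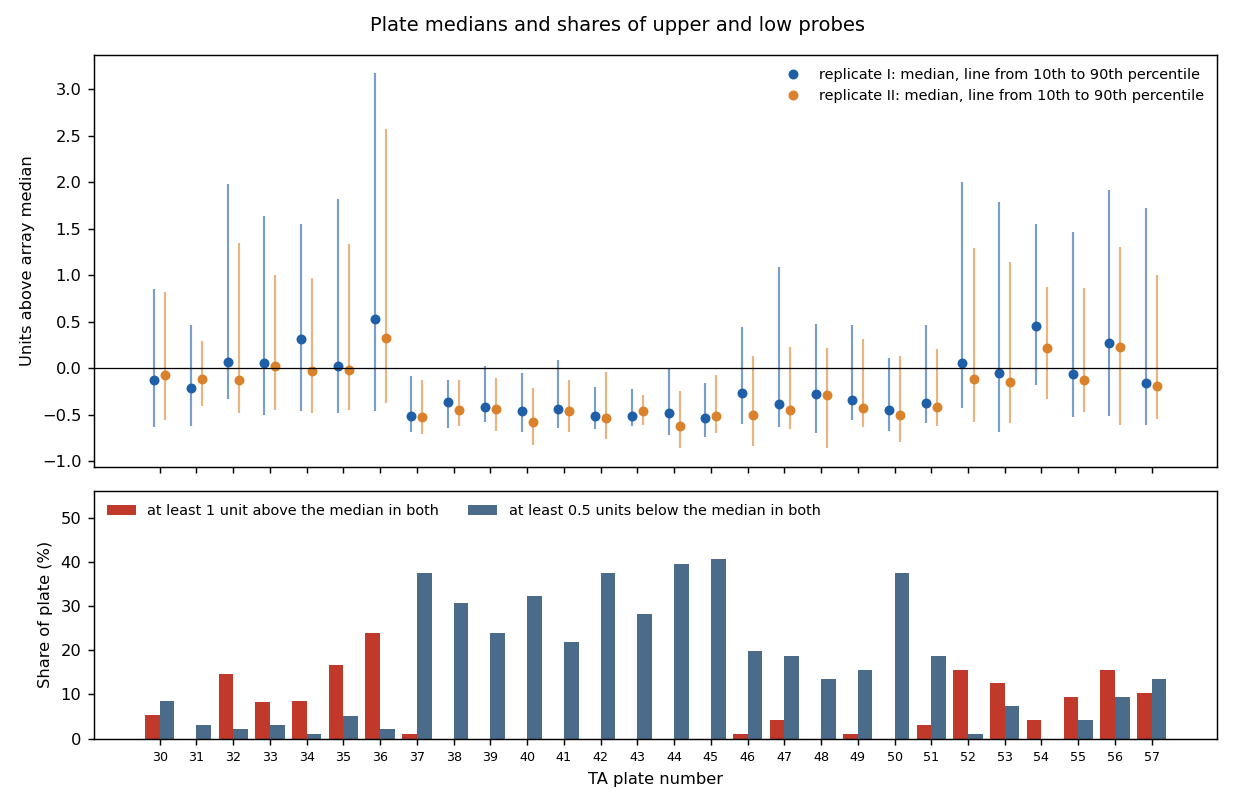
Upper panel, for each TA plate from 30 to 57, the median (point) and the range from the 10th to the 90th percentile (line) of its probes in units above the array median, in replicate I (blue) and replicate II (orange). Lower panel, share of each plate's probes that are upper (1 unit or more above the median in both replicates, red) and 0.5 units or more below it in both (blue-grey); plate 36 has 24.0% red and 2.08% blue-grey, plate 45 has 0% and 40.6%.

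The plates differed far more at their high end than at their low end. Over the 28 plates the 90th percentile spanned 3.39 (replicate I) and 2.87 units (replicate II). The median spanned 1.06 and 0.94 units, and the 10th percentile only 0.56 and 0.53. The 10th percentile was -0.54 and -0.47 units over plates 30 to 36, -0.68 and -0.75 over plates 37 to 45, -0.63 and -0.73 over plates 46 to 51 and -0.53 and -0.54 over plates 52 to 57. The low tail thus differed less between the sections than the median did, and the median less than the high end. The 28 plate medians of the replicates were related at r = 0.949 (Spearman's rho 0.918), as a description over plates of the same 4 arrays.

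**Figure D3:**
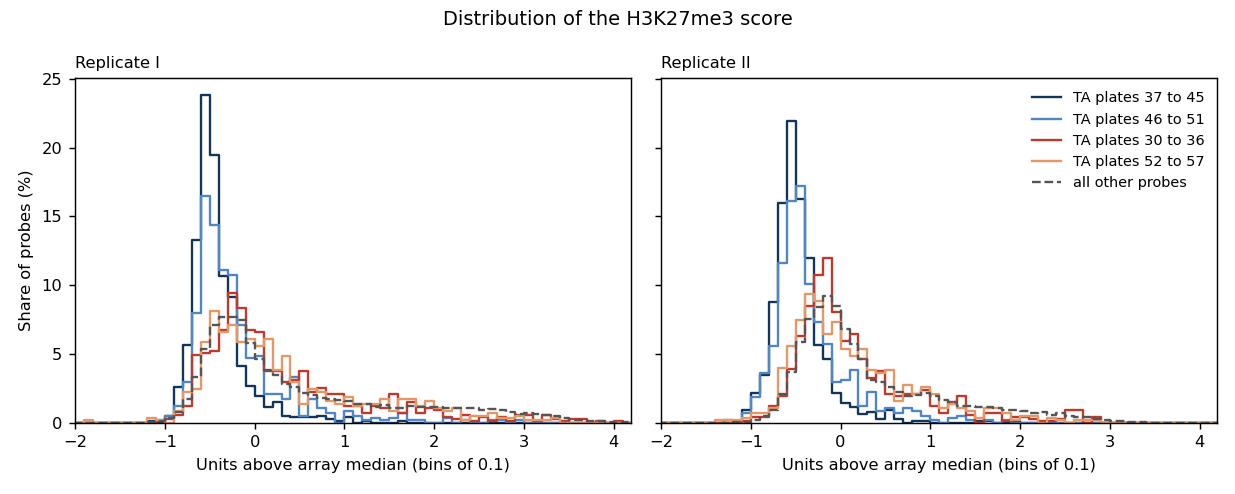
Share of probes (%) by units above the array median in bins of 0.1, for replicate I (left) and replicate II (right), in TA plates 37 to 45, 46 to 51, 30 to 36 and 52 to 57 and in all other probes of the array (dashed). Plates 37 to 45 form a narrow peak near -0.5 units, with a 90th percentile of -0.09 (replicate I) and -0.15 units (replicate II), where the other probes of the array reach 2.28 and 1.60 units.

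Single extreme low values did not all lie in the low section. The lowest probe of these plates was TA53H07, whose values were -1.86 (replicate I) and -1.28 units (replicate II), a mean of -1.57 ± 0.41 (SD, n = 2) with a limma adjusted p of 0.00171. TA56G11 was next with -1.09 and -1.19 units, a mean of -1.14 ± 0.07 (SD, n = 2) and a limma adjusted p of 0.00321. Both lie on plates with many upper probes, 12 on plate 53 and 15 on plate 56. Of the 20 lowest probes, 6 were on plates 52 to 57, 7 on plates 37 to 45, 5 on plates 46 to 51 and 2 on plates 30 to 36. These parts hold 576, 776, 576 and 669 of the 2597 probes, in the same order. Among the 100 lowest, plates 37 to 45 held 49, plates 46 to 51 held 32, plates 52 to 57 held 13 and plates 30 to 36 held 6. For its size, the floor thus stood out among the 100 lowest probes and little among the 20 lowest, a description without a test.

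Upper probes formed 57 islands (87 in replicate I alone, 65 in replicate II alone). Single probes made up 27 of them (47.4%), against 27.2% of the 872 islands on the rest of the array. The rule splits some raised runs, and allowing 1 well without an upper probe inside an island left 49 islands. The share of single probes was not worked out again for that setting. A further 23 islands had 2 to 4 probes, 6 had 5 to 9, and 1 had 17. The mean island length was 2.61 probes, against 3.87 elsewhere, and 39.6% of the upper probes lay in islands of 5 or more, against 60.3%. An upper probe was followed by another upper one in 62.2% of 148 cases, against 74.2% of 3372 cases on the rest of the array. Islands were not tested as independent units, so these are descriptions.

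**Figure D4:**
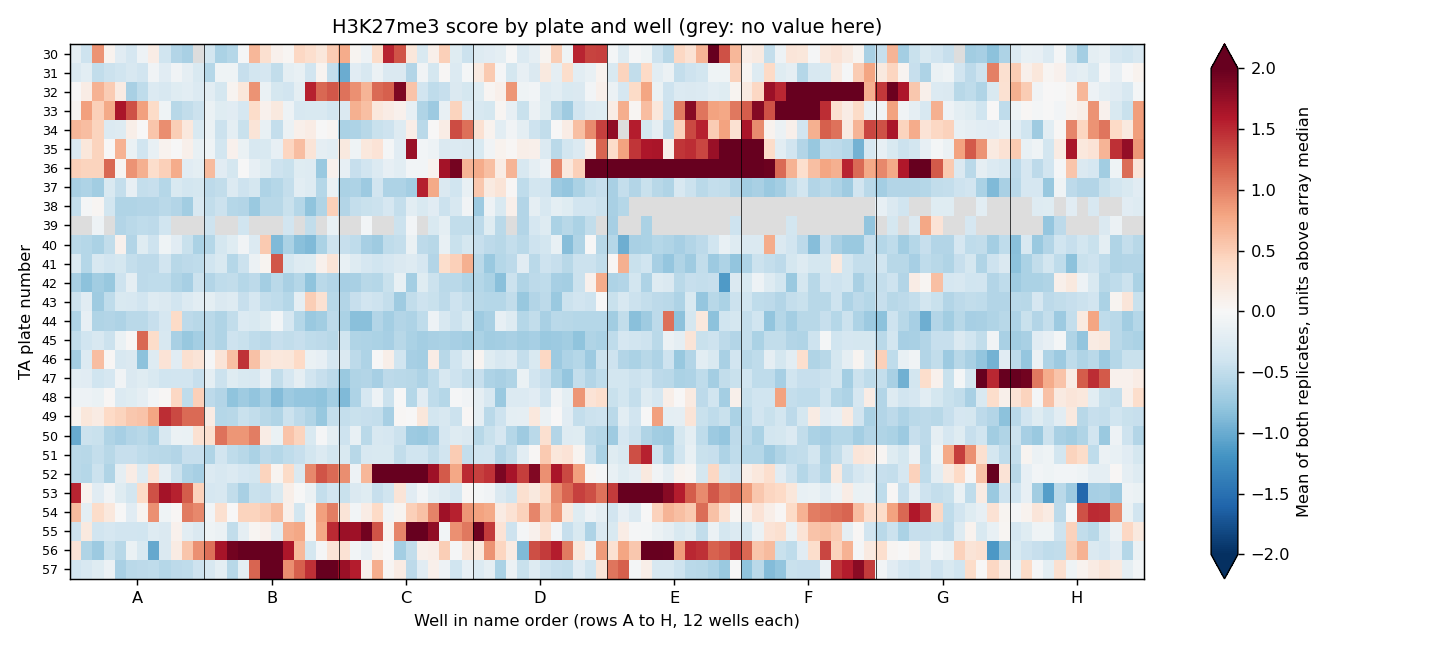
Mean of both replicates in units above the array median for each well of TA plates 30 to 57, with plates down the page and wells in name order across it (rows A to H of 12 wells); colours beyond 2 units either way are clipped and grey wells have no value here. The islands appear as red bars on plates 30 to 36 and 52 to 57, with a near-uniform pale blue block on plates 37 to 45.

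The longest and highest island lay near the end of the first section. It covered 17 neighbouring probes of plate 36, wells D11 to F03, with means of 3.25 units (replicate I) and 2.49 units (replicate II). Its probes ranged from 2.23 to 4.02 units in replicate I and from 1.69 to 2.88 in II. The 2 highest probes of the stretch lay side by side in it. TA36E09 had 4.02 and 2.81 units, a mean of 3.42 ± 0.86 (SD, n = 2) with a limma adjusted p of 0.000383. TA36E10 had 3.87 and 2.88 units, a mean of 3.38 ± 0.70 (SD, n = 2) with a limma adjusted p of 0.000324. Their order rests on replicate I, since replicate II ranks them the other way.

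The 2 edges of this island differed. On the near side the well before it, D10, had 0.65 and 0.31 units, and the first probe of the island already had 2.89 and 2.06. On the far side the values left more slowly, with 2.23 and 1.69 units in the last probe, 1.53 and 0.74 in the next well, and 1.12 and 0.27 in the one after. A lower shoulder of 0.39 to 1.80 units in replicate I followed up to well G02, with 1 upper probe at F10. A last island of 3 probes, wells G03 to G05, then averaged 2.25 and 1.78 units.

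The low stretch began directly after it. Well G07 of plate 36 had 0.57 and 0.47 units, G08 had -0.33 and -0.25, and G09 had -0.53 and -0.56. The sign thus changed in both replicates between G07 and G08, 17 wells before plate 37 begins. After that sign change, 1 probe of plate 36 was still called above the median by limma, H11 with 1.47 and 0.77 units (adjusted p = 0.00979). The first 3 wells of plate 37 lay between -0.58 and -0.56 units in replicate I and between -0.84 and -0.66 in replicate II.

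**Figure D5:**
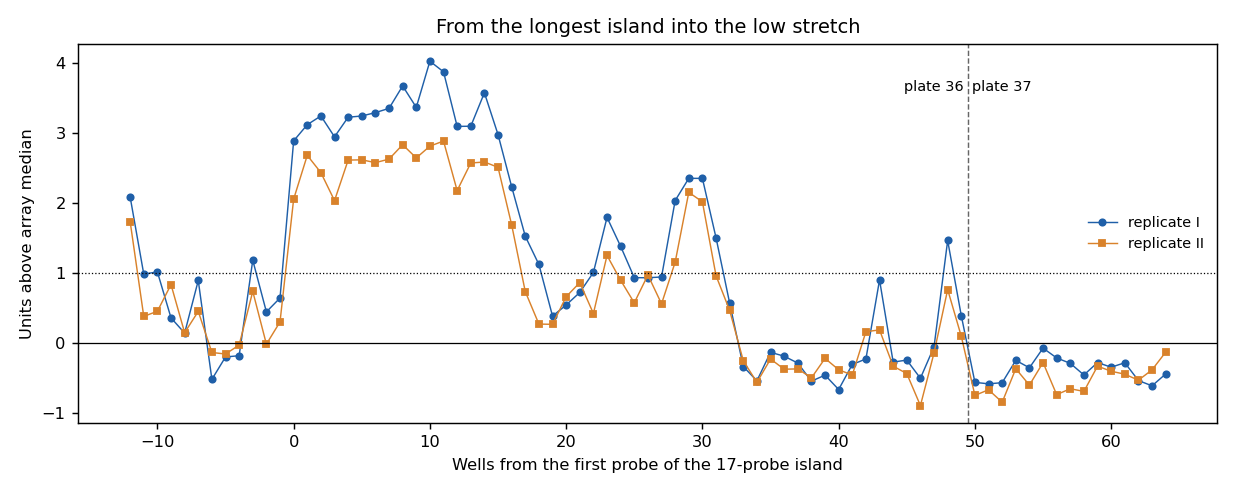
Units above the array median in replicate I (blue circles) and replicate II (orange squares) by well, counted from the first probe of the 17-probe island of plate 36, with the 1-unit rule dotted and the start of plate 37 dashed. Both replicates stand at 1.69 units or more across the island and turn negative together after the last island of 3 probes, before plate 37 begins.

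From there 974 probes passed before the next island of 3 or more, and only 3 of them were upper, each a single probe. These were well C08 of plate 37, well B04 of plate 46 and well G10 of plate 47, named after their values were seen. C08 of plate 37 had 1.22 units (replicate I) and 1.90 units (replicate II). The well before it had -0.65 and -0.70 units and the well after it 0.85 and 0.68. B04 of plate 46 had 1.66 and 1.23 units between raised neighbours. G10 of plate 47 had 2.75 and 1.37 units.

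The longest stretch without an upper probe lay between the first 2 of these, over 759 probes from well C09 of plate 37 to well B03 of plate 46. Its medians were -0.48 and -0.51 units, and 89.3% of its probes were below the array median in both. The span covers 88 wells without a value here, on plates 38 and 39; where these end a stretch, the longest was 591 probes. The stretch depends on a probe having to pass in both replicates: 371 probes without replicate I and 291 without replicate II. Within it 4 probes reached 1 unit in replicate I and 2 others in replicate II.

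The raised probes of this stretch were few and short. At a rule of 0.5 units in both replicates 9 of the 759 passed (all 2597 probes: 300, or 11.6%; background 25.6%). The highest, well B07 of plate 41, had 0.94 and 1.56 units. Well A07 of plate 45 had 0.61 and 1.70 units, and well E06 of plate 44 had 1.65 and 0.55, between neighbours of -0.58 and -0.77 units in replicate I. In each of these last 2 probes the replicates differed by more than 1 unit, in opposite directions. The replicates were related over the probes of this stretch at r = 0.696, against 0.901 over all 2597 probes, whose range is wider.

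The first island of 3 or more after the low stretch was on plate 47, wells G12 to H02, with means of 2.67 and 1.65 units. It had raised wells on either side, 2.11 units before it in replicate I and 0.91 in II, and 0.61 units after it in II. The probe at G10, described above, stood 2 wells before it. This cluster was the only place on plates 37 to 51 with 3 neighbouring upper probes. Another 421 probes then passed before the next island of that length, with 4 upper probes among them. They were well A09 of plate 49 at 1.63 and 1.31 units, wells E03 and E04 of plate 51 with means of 1.61 and 1.22, and well G08 of plate 51 at 1.53 and 1.22. The longest stretch here without an upper probe was 233 probes, from well A10 of plate 49 to well E02 of plate 51, with medians of -0.43 and -0.46 units. A further 161 probes, from well B05 of plate 46 to well G09 of plate 47, had medians of -0.40 and -0.50 units and no probe at 0.5 units in both replicates.

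Long islands resumed on plate 52. Wells C04 to C09 held 6 upper probes with means of 2.74 units (replicate I) and 1.98 units (replicate II). Wells D03 to D06 of the same plate held 4, with means of 2.03 and 1.36 units. Plate 53 followed with 7 probes in wells E01 to E07, at 2.36 and 1.45 units. On plate 56 wells B02 to B08 held 7 probes at 2.56 and 2.08 units, the highest in replicate II of the islands after the low section. Plate 57 had 4 probes in wells B11 to C02, at 2.59 and 1.81 units.

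Plate 55 held an island with the replicates in the opposite order. Its 5 probes in wells B12 to C04 averaged 1.52 units (replicate I) and 1.71 units (replicate II), and only 1 of the 5 was higher in replicate I. Elsewhere replicate I was nearly always the higher one. Among the 149 upper probes of these plates replicate II was higher for 10 (6.71%), against 69 of 3375 (2.04%) on the rest of the array. Of the 10, 4 lay in the island of plate 55.

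The first section had 3 more of the 10 longest islands, with islands of 4 probes ordered by their mean. Wells F03 to F11 of plate 32 held 9 probes at 2.89 and 2.02 units. Wells E07 to F02 of plate 35 held 8, at 2.28 and 1.68 units. Wells F04 to F07 of plate 33 held 4, at 2.58 and 1.69 units.

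Replicate I set more probes past 1 unit than replicate II on these plates, 279 against 158. Of the 158, 94.3% also passed in replicate I, close to 94.6% on the whole array. Of the 279, 53.4% also passed in replicate II, against 68.0% on the whole array. The upper probes averaged 2.26 (replicate I) and 1.65 units (replicate II), against 2.42 and 1.79 for those on the rest of the array. The count of upper probes is therefore mostly set by replicate II.

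The values away from islands depended on the distance to the nearest upper probe, in the same order in both replicates. Probes 1 well away had medians of 0.97 (replicate I) and 0.49 units (replicate II), over 105 probes. At 4 to 6 wells the medians were -0.02 and -0.14 (198 probes), and at 13 to 24 wells -0.25 and -0.27 (411 probes). At 49 to 96 wells they were -0.45 and -0.49 (334 probes), and beyond 96 wells -0.46 and -0.50 (608 probes). The other TA plates gave -0.37 and -0.32 units at 49 to 96 wells (241 probes) and -0.43 and -0.38 beyond 96 (240 probes). Distances were counted in wells of the TA series, and part of the trend follows from the rule, since an upper probe ends the distance.

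The floor was set beside the other low plates of the array. Ranked by the mean of their 2 medians, 7 of the 10 lowest of 231 plates were TA plates between 37 and 50, the 5 lowest among them, and the other 3 were TC plates from 13 on. Of the 30 lowest, 14 were from this stretch, 12 were TC plates from 13 on and 4 were TA plates between 17 and 29. The order at the bottom depends on the replicate. TC plates 19 and 21 had medians of -0.61 and -0.59 units in replicate I, lower than any plate of this stretch. In replicate II they had -0.37 and -0.41. Plates 37 to 45 had medians of -0.48 and -0.52 units, against -0.47 and -0.40 over the 1152 probes of TC plates from 13 on and -0.42 and -0.36 over the 527 probes of TA plates 22 to 27. In replicate I the first 2 of these differ by less than the median SD between replicates of a single plate (0.04 units). Only replicate II thus sets the TA floor below the pooled TC plates. The limits of plates 37 to 45 were set after the values were seen, while TC plates from 13 on were taken whole. By the mean of its 2 medians, TC plate 21 (-0.50) lay between TA plates 38 (-0.41) and 44 (-0.55). Upper probes were rare on TA plates 37 to 45 (1 of 776), TC plates from 13 on (1 of 1152) and TA plates 22 to 27 (3 of 527).

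The replicates lay closer together in the low section, and their values were less closely related there. Pooled over probes, the SD of replicates I and II was 0.173 units on plates 37 to 45 and 0.224 on plates 46 to 51. It was 0.311 on plates 30 to 36 and 0.341 on plates 52 to 57, and 0.327 over all probes outside this stretch. On plates 37 to 45 the replicates were related at r = 0.692 over 776 probes, and a probe in replicate I and its neighbour in replicate II at r = 0.277. On plates 30 to 36 these were 0.914 and 0.756. Spearman's rho of the replicates was 0.511 on plates 37 to 45 and 0.792 on plates 30 to 36. Other low plates shared this trait. The SD was 0.188 units over TC plates from 13 on and 0.211 over TA plates 22 to 27. The replicates were related there at r = 0.671 and 0.758, and neighbours across replicates at r = 0.351 and 0.432. The points of such correlations share arrays and neighbours, and a narrow range of values lowers them.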

How the data were processed

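The deposited table gives 1 score per probe and array; how the authors normalized the score, its log base, its centring and its direction are not stated in the sources used here. Depth does not apply to arrays, and with no separate channels the precision rests on 2 replicates. The deposited score had a median of -0.94 (replicate I) and -1.20 (replicate II). Arrays of opposite dye orientation were averaged within a replicate, and the median over all probes with a plate-and-well name was then subtracted. No per-sample column was left unused.

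limma's lmFit and eBayes were fitted to 21740 probes with an intercept only (two-sided, Benjamini-Hochberg threshold 0.05). The fit has 1 residual degree of freedom, so most of the variance estimate is borrowed across probes. The code was also run on simulated independent probes, with variances drawn from the fit itself. That run cannot show how the calls fare where neighbouring probes are alike. Probes were ordered by plate, row and well.

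The members, sections, rules and tests were chosen with earlier results of these data known. Named by full ID were the 2 highest and 2 lowest probes, and islands were named if among the 10 longest (ties by mean value); others were named after their values were seen. Alternatives covered centring, scaling, the rule of size, the variance prior, the threshold, the treatment of missing wells and each replicate alone. Python 3.11.15 was used with pandas 2.3.3, numpy 2.4.6, matplotlib 3.10.9 and scipy 1.17.1, and limma 3.58.1 was run in R 4.3.3.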

Additional observations from a re-analysis of the deposited data

How the results depend on the processing

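The 329 calls above the median became 84 with the values as deposited, 202 at adjusted p under 0.01 and 73 with a minimum of 1 unit, and stayed within 1.5 times in the other settings. The 390 calls below had no stable number: 2189 as deposited, 11 with mode centring, 1027 with equal spread, 1085 after quantile normalization, 14 at the stricter threshold, 1234 with the trended, robust prior and 0 with a minimum of 1 unit. The 149 upper probes became 25 as deposited, 300 at 0.5 units, 68 at 1.5 units and 158 to 279 with 1 replicate left out; with the sign turned, 4 passed. The 57 islands became 10, 100 and 21 in the first 3 of these settings and 65 to 87 with 1 replicate. The longest stretch of 759 probes became 1415 as deposited, 476 with mode centring, 197 at 0.5 units and 291 to 371 with 1 replicate. The 434 low probes became 2101 as deposited, 19 with mode centring and 678 to 770 with 1 replicate. The median of all 2597 probes, -0.29 as the mean of both replicates, became -1.37 as deposited and -0.044 with mode centring, and lay between -0.31 and -0.27 with 1 replicate. Plate 44 had the lowest median in all settings but replicate I alone, where it was plate 45. The median of plates 37 to 45 minus that of the other TA plates was -0.63, and -0.65 to -0.61 with 1 replicate; no centring can change it. Moves under other centrings, rules or thresholds follow from their construction; the cause of the others was not tested. The 4 probes named by full ID kept their calls in all 5 centring and scaling settings. For the 10 longest islands in these settings, 39 means stayed within the SD of the 2 replicates and 11 moved. Each of these islands moved with the values as deposited. The island of plate 55, wells B12 to C04, also moved with mode centring, from 1.62 to 1.86 units as the mean of both replicates.

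Leaving out a replicate gives limma no residual degrees of freedom, and a dye term over 4 separate arrays was left out, since the values of opposite dye orientations are identical. No paired analysis was possible because all arrays form 1 group. The turned sign and the settings for low probes, for plates 37 to 45 and for named probes and islands were added after the data were seen.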
